A study of Mus musculus with 8 samples.

Results

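The Notch genes examined here were 10 in number, of the 46603 genes counted in each library: the receptors Notch1, Notch2, Notch3 and Notch4, the ligands Jag1, Jag2 and Dll4, the DNA-binding effector Rbpj, and the target genes Hes1 and Hey1. They were chosen by name as the core of the pathway and were compared between EGFP-positive and EGFP-negative biliary cells paired by mouse. Of the 10 genes, 6 passed the expression filter and were tested (Notch1, Notch2, Jag1, Hes1, Hey1 and Rbpj). Notch3, Notch4, Jag2 and Dll4 had too few counts, and their counts are described library by library.

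RNA was sequenced from cells of 4 mice of 8 weeks of age (JV602, JV621, JV624 and JV6314), with 1 library of EGFP-positive cells, called liver label-retaining cells (LLRCs), and 1 library of EGFP-negative cells, called non-LRC cells, from each mouse. All mice were heterozygous for both transgenes, so the control cells carried them too: R26rtTA, a doxycycline-dependent activator driven by the ubiquitously active Rosa26 locus, and H2B-EGFP, a green histone whose label is diluted at each division. Doxycycline was given from postnatal day 0 to day 5, so that only cells labelled early in life and seldom dividing afterwards stayed green. Both groups were sorted from the non-parenchymal fraction as EpCAM+CD45- cells after removal of leukocytes, and the mice of the study were of mixed C57BL/6 and CBA background and of both sexes. EGFP is set by labelling and division and is not a marker of a cell type, and the transgene is described in the study as active without doxycycline in hematopoietic cells.

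The Notch pathway carries signals between neighbouring cells. A ligand of the Jagged or Delta-like family on the surface of 1 cell binds a Notch receptor on the next, the receptor is cut first by an ADAM protease and then by gamma-secretase, and its freed intracellular domain joins Rbpj in the nucleus to switch on genes such as Hes1 and Hey1, which encode transcriptional repressors. In the developing liver, Jag1 acting on Notch2 directs bipotent progenitors towards the biliary fate, and loss of either gene leads to a paucity of bile ducts, known in humans as Alagille syndrome. Notch1, Notch4 and Dll4 are best known from the endothelium, and Notch3 from pericytes and vascular smooth muscle.

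In what follows, 4 values of a group always stand in the order JV602, JV621, JV624 and JV6314. Total counts were between 7860021 and 9851819 in LLRC libraries and between 4670132 and 8056103 in non-LRC libraries, so that a floor of 3 counts stood at 0.291 to 0.441 CPM and at 0.376 to 0.627 CPM (counts relative to the scaled library size). The non-LRC libraries of JV621 and JV6314 stood apart: 15.6% and 7.76% of the 13605 tested genes had no count there, against at most 1.57% in the other 6 libraries. Xist, the transcript of the inactive X chromosome, was counted 120 times in LLRCs of JV621 and was at 0 in the other 7 libraries, although all 8 libraries held Y-linked transcripts (Ddx3y, 112 to 1302 counts), and whether the cells of the JV621 libraries came from the same animal alone was not tested, so values without that mouse are given where they moved by over 1.5 times. Of biliary genes, Epcam, whose protein was used for the sort, had 2421 to 6042 counts, and Krt19 had 453 to 1482 counts in every library. Their presence does not measure the share of other cells. Markers of blood cells were low, at no more than 38.0 CPM summed over 12 genes, but not absent. Csf1r had 67 to 303 counts in every library and made up 54.5% to 87.1% of the sum. Itgam had 19 to 30 counts, and Cd3e had 0 counts in all 8 libraries.

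Notch2 and Jag1 gave nearly all receptor and ligand transcripts of the members in both groups. None of the 6 tested members was called different between LLRCs and non-LRC cells. Of the 6 members tested, 0 had an adjusted p below 0.05 in edgeR's quasi-likelihood test with the mouse as a block, against 0% of all 13605 genes. At an unadjusted p below 0.05 there were again 0 of the 6, against 4.18% of all tested genes. None of the 10 members had all LLRC libraries above or all below the non-LRC libraries, against 4.06% of the tested genes. The common dispersion was 0.477, a coefficient of variation between libraries of 0.691, with 4 mice. By DESeq2 with the same block 311 genes (2.29%) were called, none of them a member.

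**Figure D1:**
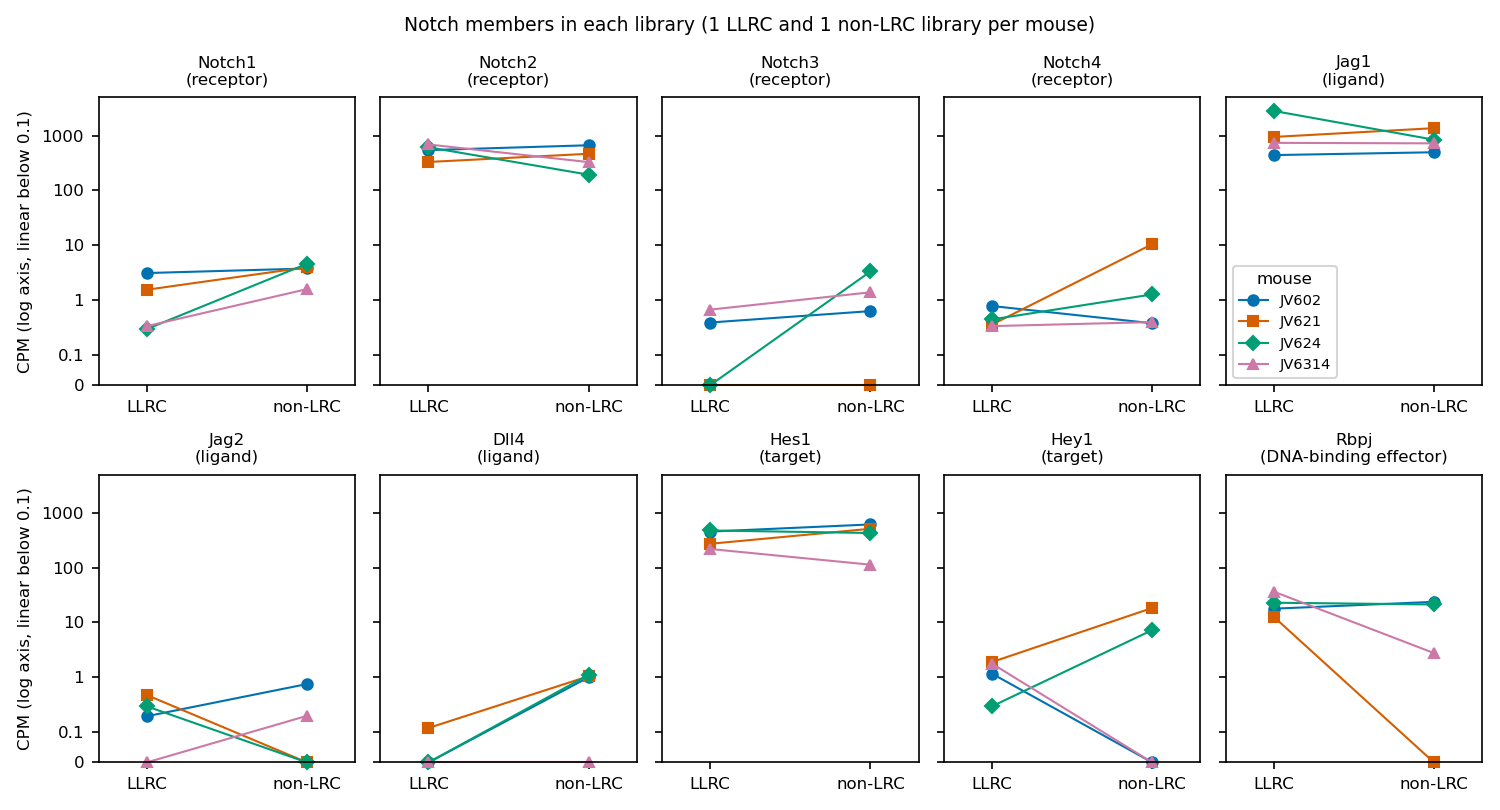
CPM of the 10 Notch genes in the LLRC and the non-LRC library of each mouse, on a log axis that is linear below 0.1, with a line joining the libraries of a mouse. Notch2, Jag1 and Hes1 lie above 100 CPM in all 8 libraries, Rbpj between 0 and 36.6 CPM, and the other 6 genes mostly below 10 CPM, and no gene separates the groups.

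Stretches of the Notch2 and Jag1 promoters are shown because these genes carried the receptor and the ligand signal. Promoter entries in RefSeq (GRCm38.p6) were found for 8 of the 10 members and not for Hes1 or Hey1. The stretches below run 5′ to 3′ along the strand of the gene and stop at the last base before the start of the gene in GENCODE M21. That of Notch2 is 239 bases on the plus strand (chr3:98013288-98013526), and that of Jag1 is 126 bases on the minus strand (chr2:137116645-137116770). Capitals mark CACGCG, the core of a site bound by Hes and Hey repressors, or its reverse complement CGCGTG.
Notch2: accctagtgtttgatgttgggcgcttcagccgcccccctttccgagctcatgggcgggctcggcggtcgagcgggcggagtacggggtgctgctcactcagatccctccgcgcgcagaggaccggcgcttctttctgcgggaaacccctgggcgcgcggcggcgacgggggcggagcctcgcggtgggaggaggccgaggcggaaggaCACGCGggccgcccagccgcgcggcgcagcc
Jag1: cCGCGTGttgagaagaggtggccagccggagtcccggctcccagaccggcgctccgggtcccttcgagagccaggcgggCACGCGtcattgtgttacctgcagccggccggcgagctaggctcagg
These letters occurred once in the Notch2 stretch and at 2 places in that of Jag1. In the first 250 bases of the RefSeq windows, 7.62% of all 32851 windows held them on either strand. Among the members, those of Notch2, Jag1 and Dll4 did. For Notch2 and Jag1 these 250 bases run past the GENCODE start at which the printed stretches stop. The letters are all G or C but 1, and the printed stretches are 74.1% (Notch2) and 70.6% (Jag1) G and C. The share over all windows was not matched for this, so it is no measure of enrichment in the members. GTGGGAA, the core letters bound by Rbpj, or its reverse complement TTCCCAC were in none of the members' windows and in 5.42% of all windows. These are matches of letters in a window, and binding was not measured.

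Notch2 (chromosome 3, 98013527 to 98150361 of GRCm38, plus strand) was the abundant receptor. It stood at 545, 331, 614 and 691 CPM in LLRCs, and at 669, 467, 194 and 329 CPM in non-LRC cells. LLRCs were the lower library in JV602 and JV621 and the higher library in JV624 and JV6314, and the groups overlapped. Notch2 averaged 545 ± 155 CPM (SD, n = 4) in LLRCs against 415 ± 203 CPM (SD, n = 4). The log2 fold change, LLRC over non-LRC, was 0.48 (standard error 0.45, 95% interval -0.63 to 1.59, adjusted p = 1 by edgeR's quasi-likelihood test with Benjamini-Hochberg adjustment). Of its exon bases, 5.02% overlap Gm42820, a transcript annotated on the same strand, and reads there could not be told apart. The log2 fold change was 0.39 without the block, 0.83 without mouse JV621 and 0.09 without mouse JV624, the highest and lowest over all alternatives. In bulk libraries such as these, fewer cells of a type and less RNA per cell cannot be told apart.

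Notch1 (chromosome 2, 26457903 to 26516663, minus strand), a receptor prominent in endothelium and blood, was measured by few reads. It had 32, 13, 2 and 3 counts in LLRCs, and 30, 19, 29 and 8 counts in non-LRC cells. Scaled for depth, the LLRC library was the lower one in 4 of 4 mice, yet the highest LLRC value (3.10 CPM in JV602) exceeded the lowest non-LRC value (1.58 CPM in JV6314). LLRC over non-LRC, the log2 fold change was -1.82 (standard error 0.85, 95% interval -3.92 to 0.28). With the block p was 0.0785 before adjustment and 1 after it by edgeR's quasi-likelihood test, and without the block the log2 fold change was -1.38 (adjusted p = 0.9999 by the same test). The log2 fold change was -1.22 without mouse JV624 and -2.42 without mouse JV602, and ran from -2.42 to -1.05 over all alternatives. An exact sign-flip permutation test over 4 mice could give no two-sided p below 0.125. Of the exon bases of Notch1, 9.76% are shared with transcripts annotated on the other strand, and since the counting ignored strand, reads there could not be told apart.

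Notch3 and Notch4 were near or below the floor of 3 counts in most libraries. Notch3 (chromosome 17, 32120820 to 32166852) had 4, 0, 0 and 6 counts in LLRCs and 5, 0, 21 and 7 counts in non-LRC cells. Of 16 mesenchymal markers, 8 had their highest level in the non-LRC library of JV624, which held the 21 counts, and 7 in that of JV6314, where Notch3 had 7 counts. Notch4 (chromosome 17, 34564268 to 34588503) had 8, 3, 3 and 3 counts in LLRC libraries and 3, 50, 8 and 2 counts in non-LRC libraries. The 50 counts came from the non-LRC library of JV621, and without that mouse the sums were 14 counts in LLRCs and 13 in non-LRC cells. Of 19 endothelial markers, 10 had their highest level in that library and 8 in non-LRC cells of JV6314, where Notch4 had 2 counts. The part of these cells in the receptor counts was not tested. Fitted without a filter, the log2 fold changes were -1.98 for Notch3 and -1.24 for Notch4 (adjusted p = 0.947 for both by edgeR's quasi-likelihood test). Without the block they were -2.21 and -2.62 (adjusted p = 0.633 for both by the same edgeR test). Of the Notch3 exon bases, 6.03% are shared with Gm17276 on the other strand.

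Jag1 (chromosome 2, 137081456 to 137116644, minus strand), the Jagged ligand of bile duct development, was the abundant ligand. It stood at 442, 948, 2836 and 739 CPM in LLRCs, and at 498, 1371, 844 and 725 CPM in non-LRC cells. The LLRC library of JV624 stood above all other libraries, and within the other mice the libraries differed less, with overlap of the groups. Means were 1241 ± 1083 CPM (SD, n = 4) in LLRCs against 860 ± 370 CPM (SD, n = 4), and the log2 fold change was 0.24 (standard error 0.44, 95% interval -0.84 to 1.32, adjusted p = 1 by edgeR's quasi-likelihood test). Without mouse JV624 it turned to -0.22, without mouse JV621 it was 0.52, and without the block it was 0.53.

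Dll4 (chromosome 2, 119325784 to 119335962, plus strand), the Delta-like ligand of endothelial tip cells, was measured by few reads. It had 0, 1, 0 and 0 counts in LLRCs and 8, 5, 7 and 0 counts in non-LRC cells. Dll4 was thus above the floor in 3 non-LRC libraries and in no LLRC library, and the libraries of JV6314 were both at 0. Pooled over libraries, the ratio of LLRC to non-LRC was 0.0350 with an exact binomial 95% interval from 0.000843 to 0.219, which covers counting error only and not the spread between mice. Fitted without a filter, the log2 fold change was -4.14 with the block (adjusted p = 0.947 by edgeR's quasi-likelihood test) and -4.10 without it (adjusted p = 0.633 by the same edgeR test). Before adjustment the values of p were 0.0735 and 0.0284. Of the Dll4 exon bases, 5.56% are shared with Gm14207 on the other strand. Jag2 (chromosome 12, 112907819 to 112929776), a second Jagged ligand, had 0 to 4 counts in LLRC libraries and 0 to 6 counts in non-LRC libraries. In each group only 1 library lay above the floor.

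Rbpj (chromosome 5, 53466152 to 53657362, plus strand), the DNA-binding protein that carries the signal of all 4 receptors, stood at 17.8, 12.8, 22.9 and 36.6 CPM in LLRCs. In non-LRC cells it stood at 23.8, 0, 21.3 and 2.76 CPM. Rbpj was thus at like levels in both libraries of JV602 and JV624, and low or at 0 in the non-LRC libraries of JV621 and JV6314, the libraries with the most genes at 0. Among the 5155 tested genes with a mean of 10 to 50 CPM in LLRCs, the range that holds Rbpj, 9.74% had no count in the non-LRC library of JV621 and 2.93% in that of JV6314, against 0.272% and 0.330% in those of JV602 and JV624. For Rbpj the log2 fold change was 2.06 (standard error 1.46, 95% interval -1.54 to 5.65, adjusted p = 1 by edgeR's quasi-likelihood test). It was 0.91 without the block, 0.94 without mouse JV621, 1.22 without mouse JV6314. It was 3.29 without mouse JV602 and also above 3 without mouse JV624, and ran from 0.50 to 3.29 over all alternatives. A copy of the gene, the pseudogene Rbpj-ps3, had 22 to 46 counts in LLRC libraries and 1 to 16 in non-LRC libraries, so that reads could be split between them.

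Hes1 (chromosome 16, 30064384 to 30067796, plus strand), the target gene best known in biliary cells, stood at 456, 273, 478 and 219 CPM in LLRCs. In non-LRC cells it stood at 616, 514, 430.0 and 114 CPM. With TMM scaling LLRCs were lower in JV602 and JV621 and higher in JV624 and JV6314, although by library size alone they were also lower in JV624, and the lowest and the highest library both belonged to the non-LRC group. For Hes1 the log2 fold change was -0.06 (standard error 0.37, 95% interval -0.97 to 0.84, adjusted p = 1 by edgeR's quasi-likelihood test), and -0.23 without the block. Its sign changed to 0.23 without mouse JV621 and to 0.05 without mouse JV602.

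Hey1 (chromosome 3, 8663359 to 8667256, minus strand), a target gene shared by endothelium and other tissues, split the mice. It had 12, 16, 2 and 16 counts in LLRCs and 0, 88, 46 and 0 counts in non-LRC cells. The non-LRC libraries thus held both the highest values (18.4 and 7.26 CPM) and the values at 0, with LLRCs between them at 0.294 to 1.89 CPM. For Hey1 the log2 fold change was -0.29 with a standard error of 3.50 (95% interval -8.90 to 8.32, adjusted p = 1 by edgeR's quasi-likelihood test). Without the block it was -2.29, and without mouse JV621 or JV624 it turned to 2.02 or 2.30.

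**Figure D2:**
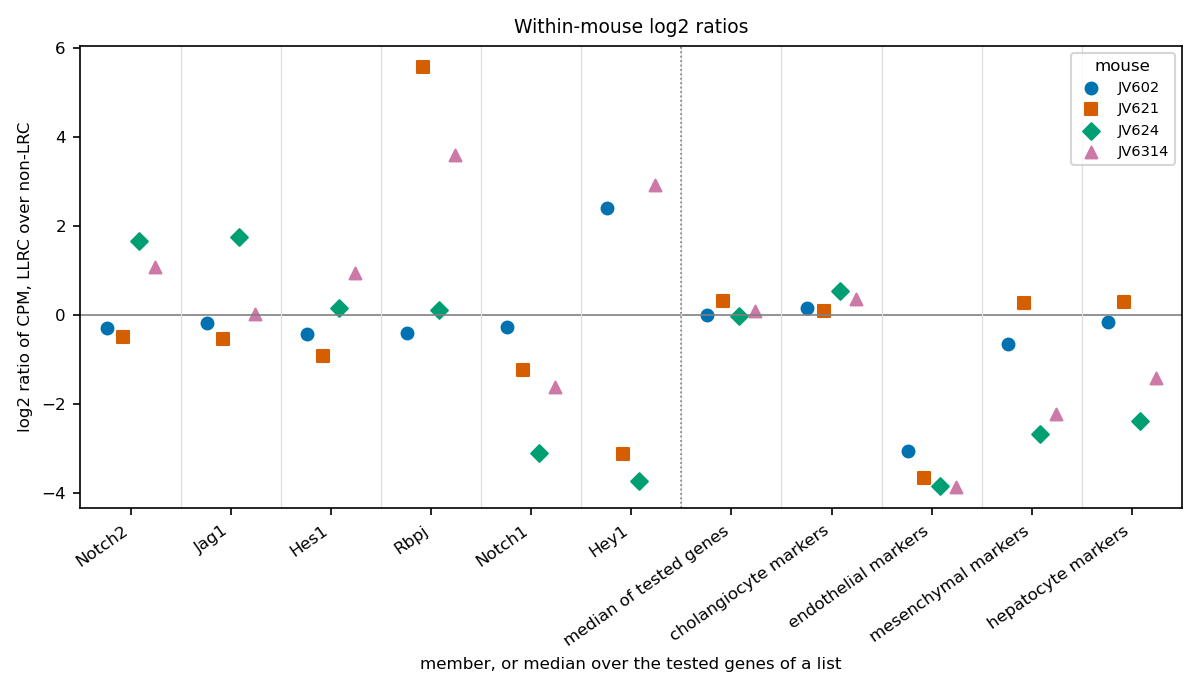
Log2 ratio of CPM, LLRC over non-LRC, within each of the 4 mice for the 6 tested members (left of the dotted line), and medians over all tested genes and over the tested genes of 4 marker lists. Notch2 lies below 0 in JV602 and JV621 and above 0 in JV624 and JV6314, Jag1 lies below 0 in JV602 and JV621 and near 0, at 0.03, in JV6314 (by library size alone its sign turns in JV602 and JV6314), Notch1 lies below 0 in all 4 mice, and the endothelial markers lie between -3.05 and -3.87.

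The within-mouse ratios set the members side by side. For Notch2 they were -0.30, -0.50, 1.66 and 1.07 on the log2 scale in JV602, JV621, JV624 and JV6314, and for Jag1 they were -0.17, -0.53, 1.75 and 0.03. Those of Hes1 were -0.43, -0.91, 0.15 and 0.95. Only Notch2 of these 3 genes kept its sign in each mouse when the counts were divided by library size alone, at -0.07, -0.23, 1.16 and 0.82. Jag1 turned to 0.05 in JV602 and to -0.22 in JV6314, and Hes1 turned to -0.34 in JV624 under that scaling, which was applied to these ratios after seeing the data. The medians of all tested genes were 0.01, 0.32, -0.03 and 0.10 with TMM scaling. Spp1, the osteopontin gene of bile ducts, took 7.85% to 18.9% of all counts, and the sum of 13 cholangiocyte markers, of which Spp1 was at least 96.7%, differed by -0.32, -0.14, 1.74 and 0.94 (log2). By library size alone Spp1 turned from -0.13 to 0.13 in JV621. The other 12 cholangiocyte markers differed by -0.02, -0.25, 0.53 and 0.28 in their sum, while the median ratio over the tested genes of the list was above 0 in all 4 mice, at 0.16, 0.10, 0.53 and 0.36. The mesenchymal sum, carried by Rgs5, differed by -0.51, 0.25, 0.60 and 0.11, but without Rgs5 it was lower in LLRCs of all 4 mice, at -1.34, -0.29, -1.70 and -1.80. The median mesenchymal gene differed by -0.64, 0.28, -2.66 and -2.23, and so took the other sign than the sum with Rgs5 in JV624 and JV6314. Hepatocyte markers were lower in LLRCs of JV624 and JV6314 by both measures, with sums that differed by 0.14, 0.72, -1.18 and -0.80 and medians of -0.16, 0.29, -2.38 and -1.41. The part of this mixture of cells in the ratios of the Notch genes was not tested.

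The order of the members was compared per kilobase of exon, since counts rise with transcript length. In LLRCs Jag1 (213 ± 186 CPM per kb, SD, n = 4) and Hes1 (175 ± 63.7) led and overlapped, followed by Notch2 (50.6 ± 14.4), Rbpj (1.77 ± 0.805) and Hey1 (0.392 ± 0.224), and each of the last 3 lay below the range of the gene before it. The lead of Jag1 over Hes1 was carried by JV624, at 487 CPM per kb. In JV602, JV621 and JV6314 Jag1 stood at 75.9, 163 and 127 CPM per kb, while Hes1 ranged from 108 to 235. The ranges of Hey1, Notch1, Notch4, Jag2, Notch3 and Dll4 overlapped from each to the next. In non-LRC cells Hes1 (205 ± 107 CPM per kb) and Jag1 (148 ± 63.5) overlapped, and Notch2 (38.5 ± 18.8), with up to 62.0 CPM per kb, followed below the range of Jag1 but not below that of Hes1, which reached down to 55.7 CPM per kb. The other 7 genes, at means of 0.0341 to 1.96 CPM per kb, lay below Notch2 and overlapped from each to the next. The upper end was Hey1, carried by JV621: without that mouse, left out after seeing the data, Hey1 averaged 0.741 ± 1.28 CPM per kb (SD, n = 3), and Rbpj was the highest of the 7 at 1.25 ± 0.901. Among 13561 tested genes with a known exon length, Jag1 exceeded 98.7% and 98.0% of genes in LLRCs and non-LRC cells, Hes1 98.3% and 98.7%, and Notch2 93.1% and 90.6%. Rbpj, on which the canonical pathway depends, exceeded 28.0% and 14.9%. Exon lengths were merged over all annotated transcripts, 12750 bases for Rbpj, and a longer length lowers the level per kb. The non-LRC mean of Rbpj also holds the 0 and 2.76 CPM of JV621 and JV6314.

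Notch2 made up 99.3%, 99.5%, 99.9% and 99.8% of the summed receptor level per kb in LLRCs, compared with 99.4%, 96.5%, 95.3% and 98.9% in non-LRC cells. The other receptors together thus stayed below 1% in every LLRC library and reached nearly 5% in a non-LRC library, with overlap through JV602. The mean share of Notch2 was 99.6% ± 0.262 (SD, n = 4) in LLRCs and 97.5% ± 1.96 (SD, n = 4) in non-LRC cells. What made up the remainder differed between the non-LRC libraries, with Notch4 at 2.88% in JV621 and Notch3 at 2.17% and Notch1 at 1.71% in JV624. Among Jag1, Jag2 and Dll4, Jag1 made up at least 99.9% in LLRC libraries and 99.6% to almost 100% in non-LRC libraries. No test was run on these shares.

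**Figure D3:**
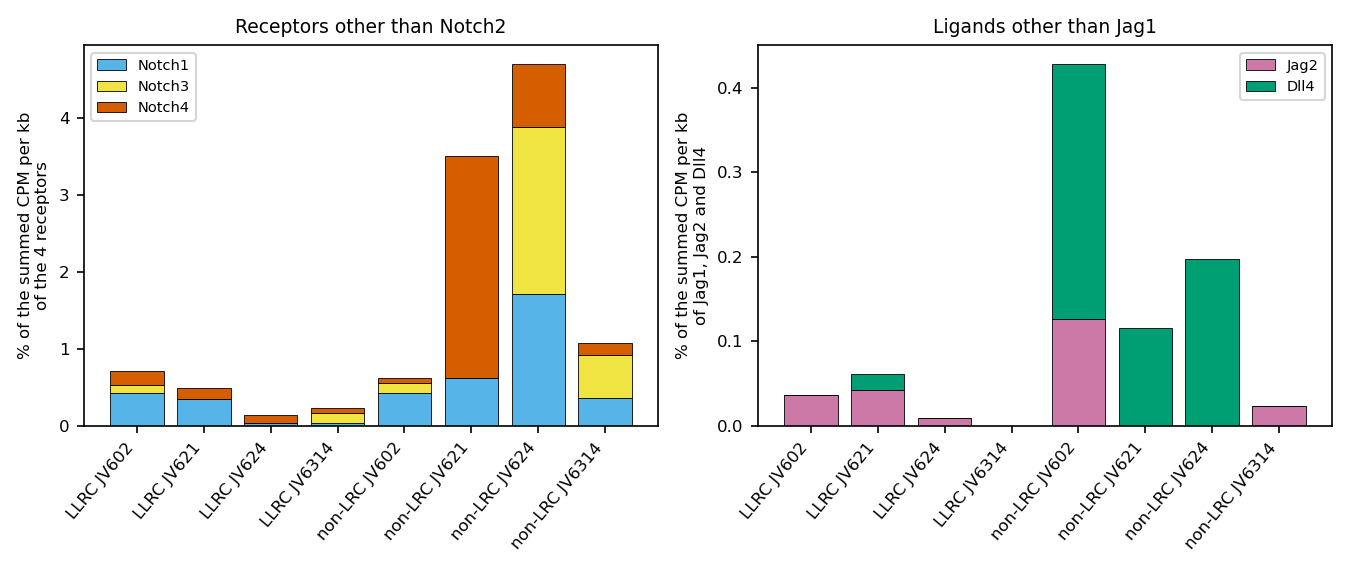
Shares of the receptors other than Notch2 (left, % of the summed CPM per kb of the 4 receptors) and of the ligands other than Jag1 (right, % of the summed CPM per kb of Jag1, Jag2 and Dll4) in each library. Notch1, Notch3 and Notch4 add up to less than 1% in the LLRC libraries and the most in the non-LRC libraries of JV621 and JV624.

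The low members were set beside markers of the cells in which they are best known. The summed level of 19 endothelial markers was 41.3 to 90.6 CPM in LLRC libraries and 319 to 1456 CPM in non-LRC libraries, without overlap. Of 16 endothelial markers tested, all 16 had a log2 fold change below 0, with a median of -3.62 against 0.14 over all genes tested. By edgeR's quasi-likelihood test with the block, 15 had an unadjusted p below 0.05, against 4.18% of all tested genes. The groups did not overlap for 13, against 4.06%. In that fit 0 passed the adjusted threshold, as did 0 of all 13605 genes. The study, by its own edgeR comparison, names Pecam1, Cdh5, Esam, Eng and Tek among genes lower in LLRCs. Pecam1, an adhesion molecule of vessels, had 1 to 42 counts in LLRC libraries and 184 to 327 in non-LRC libraries. In LLRC libraries 0 to 4 of the 19 markers were at 0, and in non-LRC libraries 0 to 2. Notch1, Notch4 and Dll4 were summed at higher counts in the non-LRC group as well, at 86 against 50, 63 against 17 and 20 against 1, although that group had fewer reads. Without mouse JV621 the sums were 67 against 37 for Notch1, 13 against 14 for Notch4 and 15 against 0 for Dll4. These are raw counts: in CPM Notch4 without that mouse was still lower in LLRCs, at 0.517 ± 0.231 against 0.678 ± 0.507 (SD, n = 3 mice), a difference smaller than the spread. However, the non-LRC library of JV6314, in which the endothelial sum was 990 CPM, had 0 counts of Dll4 and Hey1 and 2 counts of Notch4. The part of endothelial cells in these genes was not tested.

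**Figure D4:**
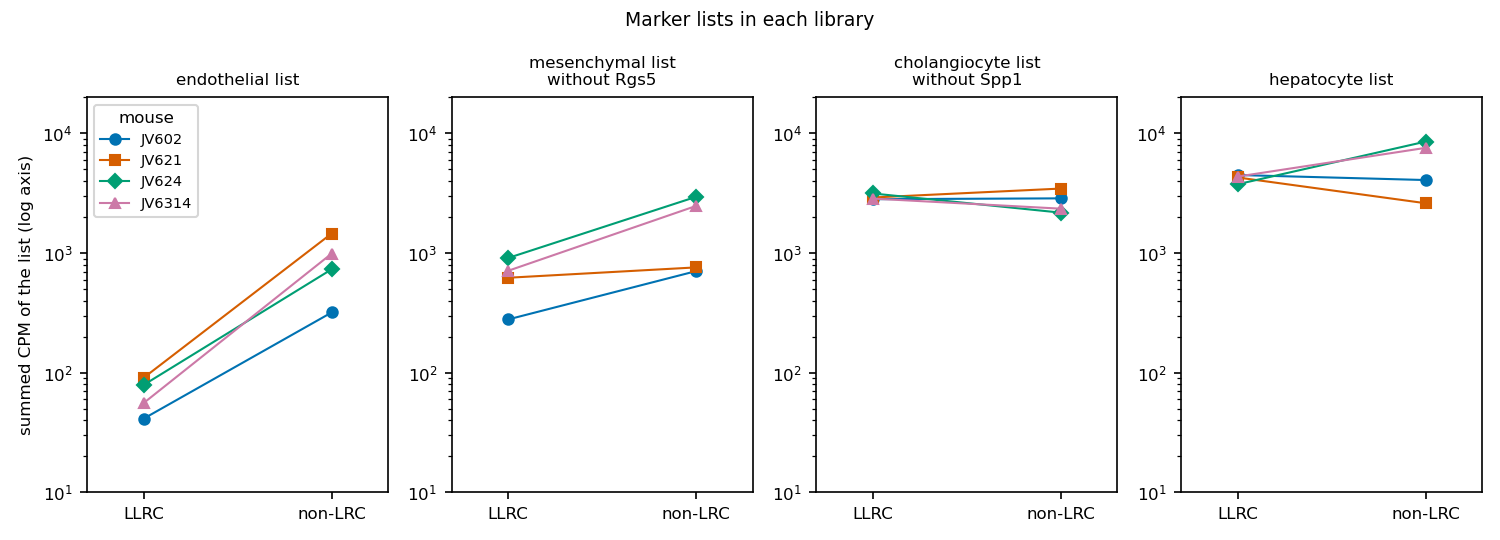
Summed CPM (log axis) of the endothelial list, the mesenchymal list without Rgs5, the cholangiocyte list without Spp1 and the hepatocyte list in the LLRC and the non-LRC library of each mouse. The endothelial sums separate the groups in all 4 mice, the mesenchymal and hepatocyte sums are highest in the non-LRC libraries of JV624 and JV6314, and the cholangiocyte sums stay between 2177 and 3461 CPM.

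The other lists did not separate the groups in this way. The sum of 16 mesenchymal markers was carried by Rgs5, a pericyte gene (51.7% to 92.9% of it), and without Rgs5 it was 279 to 910 CPM in LLRC libraries and 707 to 2955 CPM in non-LRC libraries. These ranges overlapped, although within each of the 4 mice the sum without Rgs5 was lower in LLRCs. Hepatocyte markers summed to 3758 to 4493 CPM in LLRC libraries and 2610 to 8545 CPM in non-LRC libraries. Hematopoietic markers summed to 15.9 to 33.7 and 23.8 to 38.0 CPM, and Ptprc, which encodes the CD45 that the sort removed, had 5 to 59 counts in LLRC libraries and 0 to 7 in non-LRC libraries. Pancreatic acinar markers stood at 2.13 to 23.5 CPM, except in non-LRC cells of JV6314, where they summed to 2043 CPM.

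The wider pathway was read from 56 further genes that act on ligands, receptors or the nuclear complex. Of these, 41 passed the filter, and 0 of the 41 were called by edgeR's quasi-likelihood test with the block, with 0 at an unadjusted p below 0.05 and 0 with separate groups. The log2 fold change was above 0 for 28 genes and below 0 for 13, and its median of 0.14 equalled that of all tested genes. By role, the medians were 0.37 over 10 genes of receptor processing, 0.27 over 3 genes of receptor glycosylation, 0.33 over 9 genes of trafficking and turnover, 0.34 over 7 co-activators and 0.04 over 10 co-repressors. Dll1 was the only other ligand tested and Hes6 the only other target, and both had a log2 fold change of 0.13. That of Dll1 had a standard error of 1.08, and its means ran the other way, at 1.56 CPM in LLRCs against 3.29 CPM. Dll1 stood at 1.84, 1.54, 2.21 and 0.666 CPM in LLRCs and at 2.38, 9.81, 0.947 and 0 CPM in non-LRC cells. Its fold change without mouse JV621 is not given here. The ligand genes Dll3, Dlk1, Dlk2 and Dner and the target Hes5 had 0 counts in all 8 libraries.

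Named by the size of their change, Mib2, Aph1b and Kat2a were the highest and Dtx3 and Psen2 the lowest. Mib2, an E3 ubiquitin ligase that acts on ligands for endocytosis, had 114, 53, 38 and 21 counts in LLRCs and 39, 0, 18 and 0 counts in non-LRC cells. LLRCs were higher in all 4 mice. A log2 fold change of 2.86 was estimated (standard error 1.38, 95% interval -0.54 to 6.25), for which p was 0.0851 before adjustment and 1 after it by edgeR's quasi-likelihood test. The 2 libraries at 0 were again the non-LRC libraries of JV621 and JV6314, and with 1 mouse left out the value ran from 1.90 (without JV621) to 4.07. Aph1b, a gamma-secretase subunit, and Kat2a, a histone acetyltransferase, had log2 fold changes of 1.23 (standard error 0.71) and 1.21 (standard error 1.14), with their lowest non-LRC levels, 3.97 and 0 CPM, in JV621. Without that mouse they were 0.62 and 0.41. Dtx3, a member of the Deltex family, had a value of -0.86 (standard error 0.59), which was -0.52 without mouse JV621.

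Psen2, a catalytic subunit of gamma-secretase, was counted in every library. It stood at 28.0, 25.3, 20.2 and 17.3 CPM in LLRCs and at 26.1, 43.2, 40.9 and 40.8 CPM in non-LRC cells. Only JV602 kept the groups from separating. Its log2 fold change was -0.73 (standard error 0.38, 95% interval -1.68 to 0.21), for which p was 0.106 before adjustment, and without the block p was 0.0482 before adjustment and 0.957 after it by edgeR's quasi-likelihood test.

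**Figure D5:**
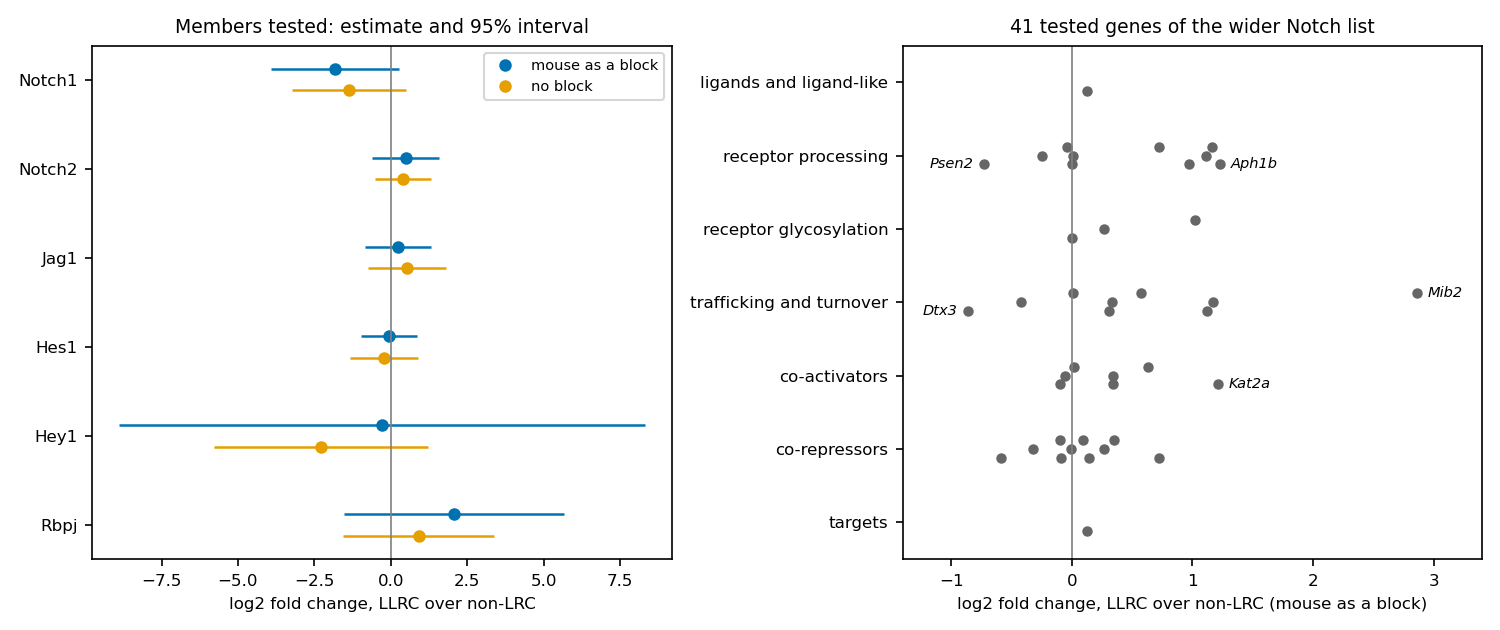
Log2 fold change, LLRC over non-LRC, of the 6 tested members with 95% intervals (left, with the mouse as a block in blue and no block in orange) and of the 41 tested genes of the wider list by role (right, with the mouse as a block). All 12 intervals of the members hold 0, that of Hey1 being the widest, and the wider list runs from -0.86 (Dtx3) to 2.86 (Mib2).

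Genes with the most similar course were sought among 13560 other tested genes with a known exon length by the root mean square difference of log2 CPM, each gene centred on its mean over the 8 libraries. For Notch2 these were Tmem42 (0.20), Cutc (0.20) and Gm23971 (0.23), where the median over all genes was 0.96. For Jag1 they were Epc1 (0.35), Zcchc10 (0.37) and Gm20656 (0.41), with a median of 1.12. For Hes1 they were Noc4l (0.27), Nub1 (0.29) and Bcl3 (0.29), with a median of 1.06. None of the 9 belongs to the pathway lists, and Dll4 was not included because it did not pass the filter.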

How the data were processed

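RNA was measured in 8 libraries, an LLRC and a non-LRC library from each of 4 mice, grouped by the EGFP status in the labels. The authors had the reads mapped as a service and counted them per gene with HTSeq (union mode, exons, ignoring strand; Ensembl genes, GRCm38.p4), and these raw counts were deposited. The aligner is not given in the sources used here. A deposited table of the authors' edgeR 3.2.4 comparison (log2 fold changes, log2 abundances, p-values and adjusted p-values) was not used here.

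Genes were filtered with filterByExpr by group, scaled by TMM (factors 0.816 to 1.23) and tested with the quasi-likelihood test of edgeR 4.0.16 (R 4.3.3) on the counts, with the mouse as a block, Benjamini-Hochberg adjustment over 13605 genes and a threshold of 0.05. The standard error was the log2 fold change over the square root of F. CPM are counts scaled by the TMM-adjusted library size, log2 CPM used a prior count of 2, and levels per kilobase used the exon length of GENCODE M21 (GRCm38), which gave symbols for 46091 of 46603 identifiers. Promoter sequences came from RefSeq. The script was tested on simulated counts, where recovery of changed genes was required only at a dispersion of 0.05. The dispersion of these data was 0.477, so that test does not show which changes could be found here. Per the labels, both libraries of a mouse came from the same animal (for JV621 this was not tested), and their deviations from the group means correlated at 0.096, 0.074, 0.003 and 0.171 across genes. Nothing names separate preparations within an animal, and p-values measure the spread between these 4 mice. Alternatives were the fit without the block, other scalings and filters, DESeq2 1.42.0, limma-voom 3.58.1, edgeR's exact test, and each mouse or library left out.

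The members and lists were chosen with earlier results of these data known. Named were all 10 members. Of the wider list, genes past the threshold or with separate groups (there were none) and the 3 highest and 3 lowest fold changes were to be named, 1 of which is not reported here, and for Notch2, Jag1, Dll4 and Hes1 the 3 genes nearest in course. Markers were named beside the results they touch. Depth limits the low members: 3 counts correspond to 0.291 to 0.627 CPM, and intervals and floors on counts cover counting error only.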

Additional observations from a re-analysis of the deposited data

Results flagged for a closer look

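In 3 of 20 groups of 4 libraries, 1 library lay far from the other 3 by Dixon's test. Its rate of about 1 group in 20 by chance holds for continuous values and not for counts with ties at 0. A group with 3 libraries at 0 and 1 above 0 is always flagged, so the number flagged cannot be set against that rate. Notch4 stood at 10.4 CPM (50 counts) in the non-LRC library of JV621, against 0.376 to 1.26 CPM in the other non-LRC libraries. Dll4 stood at 0.118 CPM in the LLRC library of JV621, which is 1 count, where the other LLRC libraries had 0. Dll4 was also at 0 CPM in the non-LRC library of JV6314, while the other non-LRC libraries stood at 1.00 to 1.11 CPM.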

How the results depend on the processing

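The members called and the genes of the wider Notch list called stayed at 0 under all 20 alternatives. The fit with no replicate block also gave 0 genes called, and 702 instead of 569 had an unadjusted p below 0.05, and the pairing by mouse changed no call. Over all genes, DESeq2's Wald test called 311 and the exact test without a filter and without the block called 127, and the cause was not tested. With single mice or libraries left out, the number called was 0 to 6, the 6 coming without the non-LRC library of JV602 in the fit without the block. Of 120 refits of the 6 tested members, 112 kept the sign of the log2 fold change and 8 reversed it, none with an adjusted p below 0.05. The reversals were in Jag1 (-0.27 to 0.86 over left-out mice and libraries, below 0 only without JV624), Hes1 (-0.54 to 0.23) and Hey1 (-2.73 to 2.30), and Hey1 also turned to 0.46 by DESeq2. The planned filter of 1 CPM in 4 libraries tested more genes (14049) than the filter used and so was no stricter. The mean share of Notch2 among receptors moved by less than 1 SD, from 96.9% to 98.3% in non-LRC cells and 99.5% to 99.7% in LLRCs, and so did that of Jag1 among ligands. With 4 mice and few counts, changes in Notch1, Notch3, Notch4, Jag2, Dll4 and Hey1 were not detectable unless large, and a p that missed the threshold does not show that groups were alike.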

Other observations

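Mfng and Lfng, which encode Fringe glycosyltransferases that tune the response of Notch receptors to their ligands, had 0 counts in all 4 LLRC libraries. Among the non-LRC libraries Mfng had 54 counts in JV621, the library that also held the most Notch4 and Hey1, and 0 in the other 3, and Lfng had 10 counts in JV6314 and 0 or 1 in the other 3. For each gene the counts of the non-LRC group thus rested on 1 library. Both failed the expression filter and were not tested. They were named after their values were seen.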
